A study of Mus musculus with 2 samples.

Results

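The enzymes that switch smooth muscle myosin on and off were followed through the cells of the mouse thoracic aorta. The 10 genes were chosen by symbol from the 32287 features of the deposited tables: the 4 myosin light chain kinases *Mylk*, *Mylk2*, *Mylk3* and *Mylk4*, the light chains *Myl6* and *Myl9*, and the phosphatase genes *Ppp1cb*, *Ppp1r12a*, *Ppp1r12b* and *Ppp1r14a*. All 10 had at least 1 unique molecular identifier (UMI, a counted RNA molecule) in both aortas. Both libraries belong to a single group, WT: the thoracic aortas of 2 male GFPiSMC mice (*Myh11*-CreERT2.mT/mG on C57BL/6J), 12 weeks of age, given tamoxifen at 1 mg per day for 5 days from 3 weeks of age. Both animals carried the same alleles and the same tamoxifen, the Cre was driven by *Myh11*, and each library was 1 animal. Live singlets were collected whether or not they carried GFP. Droplet libraries that count the 3′ ends of transcripts were made from them.

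Smooth muscle contracts when a rise in calcium turns on myosin light chain kinase, which phosphorylates the regulatory light chain of myosin. The light chain is reset by a phosphatase built from a catalytic subunit and a targeting subunit that holds it on myosin. ROCK kinases and protein kinase C slow the phosphatase, in part through small inhibitor proteins, and cyclic GMP speeds it.

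The members lie on 8 chromosomes of GRCm38 in the GENCODE annotation. *Mylk* (ENSMUSG00000022836) spans chr16:34745210-35002420 on the plus strand, and its 2 coding transcripts encode 1950 and 159 codons. The short one begins inside the long one, at position 34994807, and encodes telokin, a kinase-free protein of smooth muscle. Counts of *Mylk* therefore add kinase and telokin messages, which cannot be told apart here. *Mylk4* (ENSMUSG00000044951) spans chr13:32700834-32783954 on the minus strand. *Ppp1r14a* (ENSMUSG00000037166) spans chr7:29289308-29293801 and *Myl9* (ENSMUSG00000067818) spans chr2:156775420-156781658, both on the plus strand. Several members are crossed by genes on the other strand, among them *Mylk* by *Gm21691* and *Ppp1r12b* by *Syt2*, which the tables count as separate features.

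Promoter windows (250 bases before to 50 after the start) were present in the RefSeq table of GRCm38.p6 for 9 of the 10 genes, as 12 windows. The 250 upstream bases of 4 genes are shown because *Mylk4* and *Ppp1r14a* were low in some of the smooth muscle subsets described further on, where *Mylk* and *Myl9* differed less. Capitals mark 3 motifs searched on both strands: the CArG box bound by serum response factor, the homeodomain core TAATTA, and the SMAD element CAGAC. The motifs do not overlap in these windows.
Mylk4, chr13:32783965-32784214, minus strand: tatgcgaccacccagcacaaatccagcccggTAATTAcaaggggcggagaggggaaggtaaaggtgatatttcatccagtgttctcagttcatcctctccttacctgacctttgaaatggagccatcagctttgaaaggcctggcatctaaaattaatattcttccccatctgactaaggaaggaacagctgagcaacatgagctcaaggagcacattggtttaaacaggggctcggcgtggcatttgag
Ppp1r14a, chr7:29289070-29289319, plus strand: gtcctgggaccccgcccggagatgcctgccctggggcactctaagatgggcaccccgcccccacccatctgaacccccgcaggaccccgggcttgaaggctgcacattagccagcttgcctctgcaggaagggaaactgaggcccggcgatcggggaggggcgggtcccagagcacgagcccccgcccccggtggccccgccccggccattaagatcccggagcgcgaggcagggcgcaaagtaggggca
Mylk, chr16:34784700-34784949, plus strand: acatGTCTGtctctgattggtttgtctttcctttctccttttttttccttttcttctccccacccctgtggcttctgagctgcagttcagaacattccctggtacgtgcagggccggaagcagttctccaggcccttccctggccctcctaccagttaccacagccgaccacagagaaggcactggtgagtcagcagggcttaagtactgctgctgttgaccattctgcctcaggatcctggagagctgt
Myl9, chr2:156775214-156775463, plus strand: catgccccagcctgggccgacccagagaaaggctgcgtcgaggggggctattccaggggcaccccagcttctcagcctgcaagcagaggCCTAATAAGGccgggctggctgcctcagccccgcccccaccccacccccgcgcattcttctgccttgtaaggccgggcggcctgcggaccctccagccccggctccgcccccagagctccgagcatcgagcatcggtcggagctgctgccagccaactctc
The *Myl9* window held 1 CArG box, as did 1 of the 2 *Myl6* windows, and 1.63% of all 32851 windows held it. The *Mylk4* window was the only member window with TAATTA, which 5.29% of all windows held. CAGAC was present in the *Mylk* window and in 4 others of the members, and in 49.6% of all windows. The *Ppp1r14a* window held none of the 3. The *Mylk* window belongs to the long transcript, so it does not show the start of telokin. The *Mylk4* window lies at the outer end of the gene and at the start of neither of its 2 coding transcripts in GENCODE, which begin at positions 32781716 and 32776413.

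The tables held 8947 and 6263 cells (aorta 1 and aorta 2) with 47009780 and 30919996 UMIs. After filters, 6539 and 4614 cells were analysed, and 18 barcodes were shared by the libraries as deposited, 10 among the analysed cells. Clusters were named from marker genes, with the members left out of the clustering. Smooth muscle cells (SMCs) made up 36.7% and 37.8% of cells, with a median of 7559 and 7391 UMIs. The 9 SMC markers summed to 46715 and 44904 counts per 1000000 UMIs (CPM) in SMCs and to between 673 and 2366 CPM in the other types. Fibroblasts (1464 and 1011 cells), endothelial (784 and 730), mesothelial (274 and 158), myeloid (963 and 597), lymphoid (620 and 359) and erythroid cells (23 and 13) made up the rest, beside 13 unnamed cells of aorta 1.

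The kinases differed by cell type. *Mylk*, the kinase of smooth muscle, was measured at 1189 and 1187 CPM in SMCs of aorta 1 and aorta 2, and at 13.7 to 67.6 CPM in the other 6 types. *Mylk4*, a family member of less known function, was measured at 173 and 174 CPM in SMCs and at no more than 3.10 CPM elsewhere. In both cases the SMC values lay above every other value, and both aortas had nearly the same level. CPM values count molecules from their 3′ ends and are not divided by gene length. *Mylk* values of endothelial cells and fibroblasts overlapped, as did the *Mylk4* values of the 5 other types in which it was found. *Mylk4* gave 98.5% and 98.9% of its UMIs in SMCs, the highest share of the members, and *Mylk* gave 94.4% and 95.5%.

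*Mylk2*, known from skeletal muscle, was rare: 73 and 43 UMIs in SMCs (4.13 and 3.47 CPM), 5 and 5 in mesothelial cells (2.76 and 4.96 CPM), 8 and 1 in fibroblasts and none in endothelial cells. The SMC and mesothelial ranges overlapped. *Mylk3*, the cardiac kinase, was highest in mesothelial cells, with 31 and 18 UMIs in mesothelial cells (17.1 and 17.8 CPM) against 4 and 2 in SMCs (0.226 and 0.161 CPM). Mesothelial cells held 64.6% and 72.0% of all *Mylk3* UMIs although they were 4.19% and 3.42% of cells. *Mylk3* was seen in 8.76% and 10.8% of mesothelial cells. No UMI was found in lymphocytes, where 3 UMIs would be 1.01 and 1.71 CPM (intervals and limits cover counting error only).

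In SMCs the 4 kinases together were 87.0% and 87.0% *Mylk* (95% exact binomial intervals 86.6 to 87.4% and 86.5 to 87.5%). *Mylk4* made up 12.7% and 12.7% (12.2 to 13.1% and 12.2 to 13.2%). *Mylk2* and *Mylk3* made up 0.302% and 0.0166% in aorta 1, and 0.254% and 0.0118% in aorta 2. In mesothelial cells *Mylk3* was 24.0% and 23.4% of the kinase UMIs (16.9 to 32.3% and 14.5 to 34.4%). When each cell was thinned to 1000 UMIs, *Mylk* was detected in 65.0% and 63.8% of SMCs and *Mylk4* in 12.2% and 12.5% (92.3% and 91.1%, and 40.1% and 40.4%, before thinning). In lymphocytes, which should lack both and had a median of 4083 and 3872 UMIs, the thinned shares were 3.23% and 1.39% for *Mylk* and 0.323% and 0% for *Mylk4*. *Mylk4* was seen in 13.5% and 13.5% of SMCs with a *Mylk* UMI and in 9.65% and 10.9% of those without, at this thinned depth.

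The light chains are the substrate side. *Myl9*, the regulatory light chain that the kinase phosphorylates, was measured at 4642 and 4903 CPM in SMCs and at 55.5 to 176 CPM in the other types. *Myl6*, the essential light chain shared by muscle and non-muscle myosin, was the most abundant member, at 8982 and 9394 CPM in SMCs. Unlike *Myl9*, *Myl6* was plentiful elsewhere, from 426 CPM in erythroid cells to 2275 CPM in mesothelial cells. SMCs held 96.5% and 97.0% of *Myl9* UMIs and 82.1% and 83.7% of *Myl6* UMIs.

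The phosphatase genes differed in how far they were restricted to SMCs. *Ppp1cb*, the catalytic subunit, was measured at 321 and 326 CPM in SMCs and at 64.0 to 202 CPM in the other types. SMCs held 82.6% and 83.8% of *Ppp1r12a* UMIs and 84.3% and 86.0% of *Ppp1r12b* UMIs. *Ppp1r12a*, the main targeting subunit, was measured at 783 and 799 CPM in SMCs and *Ppp1r12b*, its paralog, at 329 and 311 CPM. Fibroblasts had the next highest *Ppp1r12b*, at 83.4 and 76.2 CPM, above both mesothelial values (38.7 and 33.7). *Ppp1r12b* was 29.6% and 28.0% of the 2 targeting subunits' UMIs in SMCs, 44.5% and 42.3% in fibroblasts and 13.6% and 12.9% in endothelial cells. *Ppp1r14a*, the phosphatase inhibitor that protein kinase C activates, was measured at 1038 and 958 CPM in SMCs and at 8.92 to 49.2 CPM elsewhere. It resembled *Mylk* and *Myl9* in its distribution, with 95.7% and 96.5% of its UMIs in SMCs.

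**Figure D1:**
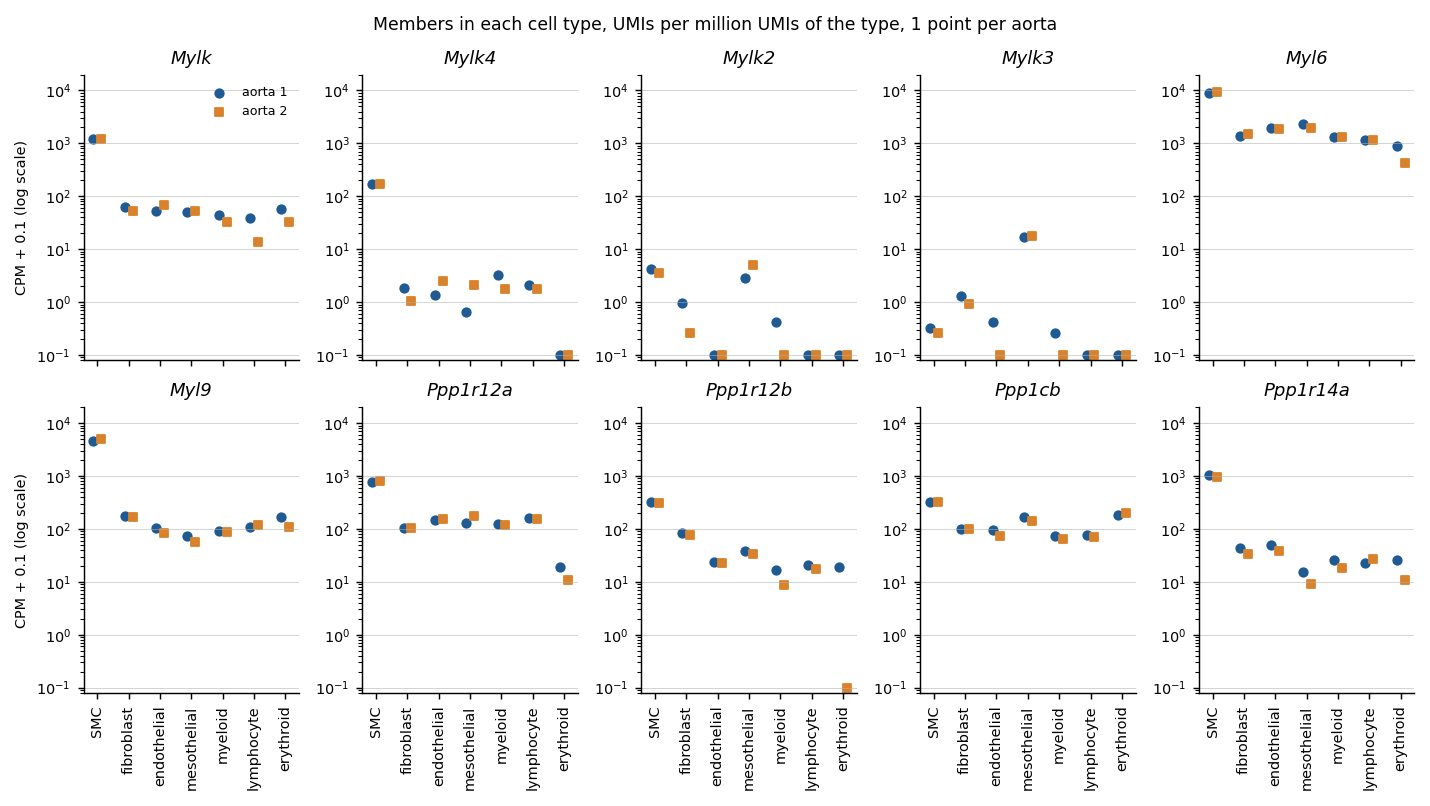
CPM of each member in 7 cell types on a log scale (0.1 added so that a count of 0 can be drawn), with 1 point per aorta. The SMC points of *Mylk* (1189 and 1187) and *Mylk4* (173 and 174) stand above all other types, while *Mylk3* is highest in mesothelial cells (17.1 and 17.8).

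Differences between cell types were tested on UMIs summed per aorta and type with the edgeR quasi-likelihood test, and a gene was called at a Benjamini-Hochberg adjusted p under 0.05 and a log2 fold change beyond 1. Against fibroblasts, 9 of the 10 members were higher in SMCs, where 10.4% of all 13969 genes tested were higher. *Mylk3* alone was lower, where 16.0% of all genes were. The median log2 fold change was 2.85 over the members and -0.09 over all genes tested. *Mylk4* had the largest fold change (log2 fold change 6.94, SE 0.19, adjusted p = 1.89e-17), followed by *Myl9* (4.83, SE 0.16) and *Ppp1r14a* (4.71, SE 0.16). *Mylk* was higher by 4.40 (SE 0.20) on the log2 scale, and the phosphatase subunits *Ppp1r12a*, *Ppp1r12b* and *Ppp1cb* by 2.97, 2.04 and 1.75 (SE 0.12, 0.13 and 0.12). *Mylk2* was higher by 2.71 (SE 0.52, adjusted p = 0.000187, edgeR), which rests on 116 UMIs in SMCs and 9 in fibroblasts. DESeq2 did not call it (adjusted p = 0.525), and its log2 fold change was 4.22 without aorta 1 and 2.27 without aorta 2. *Mylk3* fell by 2.20 (SE 0.68, adjusted p = 0.00939, edgeR), on 6 and 16 UMIs, and had too few UMIs to be tested when only these types were fitted. Cell types were cut from the same cells, so these p-values measure the spread between the 2 aortas and not the certainty of the types.

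Against endothelial cells, 9 of 10 members were higher in SMCs and 0 lower (0 lower also at an unadjusted p under 0.05 and by DESeq2), where 14.0% and 15.5% of all genes were. DESeq2 called 8 higher, without *Mylk2* (adjusted p = 0.161), and 8 of the 9 members tested were higher with cells of 5000 to 25000 UMIs, where *Mylk2* had too few UMIs to be tested. *Mylk4* differed by 6.80 (SE 0.23), *Myl9* by 5.84 (SE 0.17) and *Ppp1r12b* by 3.99 (SE 0.17) on the log2 scale. *Mylk2* had no UMI in endothelial cells, so that its SMC level was at least 4.39-fold higher in aorta 1 and at least 2.93-fold higher in aorta 2 (against 3 UMIs per library). The members' median log2 fold change was 4.24, or 3.29 with *Mylk2* at that bound, and 0.00 over all genes. *Mylk3*, with 6 UMIs in SMCs and 1 in endothelial cells, did not pass (adjusted p = 0.866, edgeR), at a ratio of 1.14 (95% exact interval 0.138 to 52.5). Against mesothelial cells, 8 members were higher and *Mylk3* was lower (13.8% and 15.2% of all genes). Here *Mylk3* fell by 6.02 (SE 0.53, adjusted p = 7.61e-09, edgeR), a ratio of 87.2 (95% exact interval 37.3 to 249) in summed CPM. *Ppp1r14a* was higher in SMCs by 6.55 (SE 0.22) and *Ppp1cb* by 1.31 (SE 0.13). *Mylk2* did not pass the test against mesothelial cells (log2 fold change 0.35, SE 0.58, adjusted p = 0.664 with edgeR).

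Between endothelial cells and fibroblasts, 0 members were higher and 2 were lower, where 11.6% and 14.5% of all genes were. *Ppp1r12b* was lower in endothelial cells by 1.95 on the log2 scale (-1.95, SE 0.18, adjusted p = 4.96e-09 with edgeR). *Myl9* sat at the threshold (-1.01, SE 0.15). It was not called with cells of 5000 to 25000 UMIs (-0.81), at clustering resolution 2 (-0.996), with only these types fitted (-0.97) or with doublets kept (0.15). At an unadjusted p under 0.05 edgeR had 1 member higher, *Ppp1r12a*, and 5 lower, and DESeq2 had 2 higher, *Myl6* and *Ppp1r12a*, and 3 lower. The share of all genes at that unadjusted p was not counted. At the adjusted threshold DESeq2 called 0 higher. The log2 fold change of *Mylk* was -0.10 (SE 0.21) and that of *Ppp1r14a* 0.02 (SE 0.18), and neither passed.

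**Figure D2:**
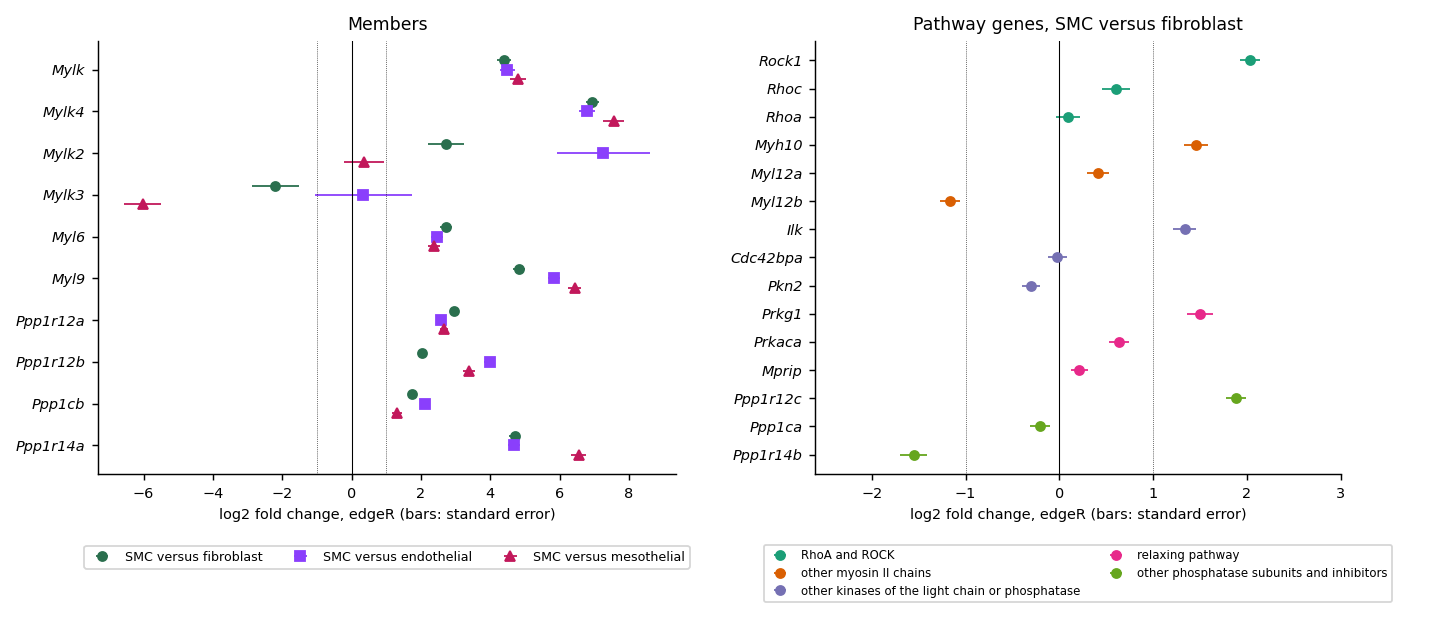
Left: log2 fold changes (edgeR, bars are standard errors) of the 10 members in SMCs against fibroblasts, endothelial and mesothelial cells. Right: the same against fibroblasts for named genes of the pathway. Dotted lines mark a log2 fold change of 1 in either direction. The fitted value of *Mylk2* against endothelial cells, which had no UMI, depends on the prior count and is no measured fold. *Mylk4* lies farthest right of the members against fibroblasts (6.94) and *Mylk3* against mesothelial cells farthest left (-6.02).

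The low levels outside SMCs were set beside those of 9 SMC marker genes. In fibroblasts, endothelial, mesothelial, myeloid and lymphoid cells the markers had a median of 0.0145 to 0.0293 times their SMC level. *Mylk4* stood at 0.0032 to 0.0179 times, in each of these types and both aortas below the median of the markers. Single markers ran from 0.0069 to 0.34 times, and whether these low counts came from free RNA was not tested. *Mylk* stood at 0.0115 to 0.057 times its SMC level. Among fibroblasts *Mylk* varied by cluster: it was measured at 97.1 and 109 CPM in the cluster led by *Fmod* and *Dio2*, but at 10.3 and 9.65 CPM in the cluster led by *Comp* and *Hmcn2*. *Myh11*, the smooth muscle heavy chain, was measured at 59.8 and 39.8 CPM in the first and at 43.7 and 43.7 CPM in the second. *Acta2* and *Tagln* were measured at 363 and 345 CPM and at 262 and 212 CPM in the first, and at 215 and 221 CPM and at 80.8 and 132 CPM in the second. *Cnn1* was measured at 19.6 and 13.7 CPM against 15.9 and 19.9 CPM, and like *Myh11* it lay higher in the first cluster in aorta 1 only. The 9 markers summed to 1101 and 991 CPM against 510 and 608 CPM. Their part in the difference in *Mylk* was not tested.

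Other genes of the pathway were taken from a list of 46 by role, 40 of them tested. Against fibroblasts 9 were higher in SMCs and 5 lower (10.4% and 16.0% of all genes), with a median log2 fold change of 0.25 beside -0.09 over all genes tested. Of the RhoA and ROCK genes, 1 of 8 was higher: *Rock1*, which inhibits the phosphatase, was measured at 715 and 725 CPM in SMCs and 181 and 181 CPM in fibroblasts (log2 fold change 2.03, SE 0.11). *Rhoa* was at similar levels in both, 474 and 472 CPM against 445 and 470 CPM, and did not pass.

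Among other kinases of the light chain or phosphatase, 2 of 11 were higher, *Ilk* (1.33, SE 0.12) and *Dapk2* (1.53, SE 0.21), and 2 were lower, *Dapk1* (-3.68, SE 0.13) and *Prkca* (-1.06, SE 0.16). *Prkg1*, the cyclic GMP kinase of the relaxing pathway, was higher, at 64.0 and 63.4 CPM against 24.7 and 21.1 CPM (adjusted p = 6.56e-09, edgeR), and *Prkaca* and *Mprip* were not called. Of the other phosphatase subunits and inhibitors, *Ppp1r12c* (1.88, SE 0.11) and *Ppp1r14c* (3.69, SE 0.31) were higher and *Ppp1r14b* was lower (-1.55, SE 0.15). Among the other myosin II chains, *Myh10* (1.46, SE 0.13) and *Myl4* (1.42, SE 0.22) were higher, and *Myl12b*, a regulatory light chain of non-muscle myosin, was lower (-1.17, SE 0.11). *Myl10* was called lower with no UMI in SMCs, on 12 UMIs in fibroblasts of aorta 2 and 0 in those of aorta 1. *Myl12b* thus ran opposite to *Myl9*, at 122 and 140 CPM in SMCs and 301 and 306 CPM in fibroblasts. Against endothelial cells 8 and 5 of the 40 were called higher and lower (14.0% and 15.5% of all genes), and against mesothelial cells 10 and 4 (13.8% and 15.2%).

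SMCs were then divided into 12 subsets, again without the members, each named here by its leading gene. The *Hand2os1* subset (503 and 143 cells) and the *Acan* subset (144 and 218) carried *Hand2*, the *Hoxa7* subset (316 and 299) carried posterior Hox genes (summed to 161 and 163 CPM), and the *Dlx6* (243 and 261) and *Hhip* (143 and 123) subsets carried *Dlx* and *Msx* genes. Posterior Hox genes were at similar levels in the *Pln* (148 and 192 CPM) and *Serpinf1* (138 and 171 CPM) subsets, and *Hand2* and *Tbx20* summed to 70.0 and 75.6 CPM in *Acan*, 75.0 and 55.6 in *Serpinf1* and 70.3 and 41.0 in *Vcam1*, against 122 and 117 in *Hand2os1*. The *Dlx* and *Msx* genes summed to 298 and 251 CPM in *Dlx6* and 311 and 321 in *Hhip*. They also summed to 92.9 and 40.7 CPM in *Nrn1* and 81.4 and 45.9 in *Cd74*, against 2.59 and 4.47 in *Hand2os1*. The *Vcam1* subset (123 and 121) carried *Cdkn1a* and *Mdm2*. *Pln* (67 and 57) and *Nrn1* (118 and 67) led smaller subsets. The markers matched the *Nrn1* subset best to the fibroblast list, on 3 markers detected, and its 10 leading genes held *Lum*, a fibroblast marker, and no SMC marker. The *Cyb5r3* (463 and 278) and *Adam33* (72 and 65) subsets had a median of 1746 and 1856 UMIs per cell, and the *Serpinf1* (174 and 88) and *Cd74* (32 and 26) subsets were led by markers of other cell types.

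All 9 members with enough UMIs differed among the subsets (edgeR F test), as did 52.8% of all 10686 genes tested. *Mylk3* was not tested, with 6 UMIs in all SMCs. *Mylk4* varied widely: 341 CPM at most, in the low-UMI *Adam33* subset (293 and 341), then 288 and 330 CPM in the *Hand2os1* subset, 240 and 274 in *Hoxa7*, 180 and 211 in the low-UMI *Cyb5r3* subset, 156 and 208 in *Acan*, 132 and 149 in *Vcam1*, 113 and 120 in *Cd74*, 86.3 and 59.6 in *Serpinf1* and 42.0 and 77.4 in *Pln*. It was measured at 26.8 and 34.4 CPM in the *Dlx6* subset, 12.0 and 22.9 in *Nrn1* and 6.79 and 13.9 in *Hhip*. The last 3 subsets lay below the other 9 in both aortas. Of their 955 cells, 913 came from 1 cluster led by *Lrrtm3*, *Rgs5* and *Mia* (483 of 504 in *Dlx6*, 165 of 185 in *Nrn1* and 265 of 266 in *Hhip*), which gave 43 of the 3189 cells of the other 9. That cluster was counted as SMC only after the small-vessel mural name had been restricted with the cluster table seen. With that mural class set apart, *Mylk4* made up 15.4% of the SMC kinase UMIs. *Ppp1r14a* was low in the same 3, in the order *Dlx6*, *Nrn1* and *Hhip* at 346 and 424, 376 and 617, and 123 and 124 CPM, against 1373 and 1289 CPM in *Hand2os1* and 1351 and 1281 CPM in *Hoxa7*. Only in aorta 2 did another subset, the mixed *Serpinf1* one (576 CPM), fall below *Nrn1*.

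*Mylk* differed less. It was measured at 1389 and 1453 CPM in the *Hand2os1* subset, 1308 and 1360 in *Hoxa7*, 1216 and 1215 in *Dlx6*, 1147 and 1563 in *Nrn1* and 906 and 838 in *Hhip*, and its lowest levels were in the mixed *Serpinf1* subset (661 and 775) and the *Vcam1* subset (756 and 719). *Myl9* was measured at 4844 and 4929 CPM in *Hand2os1*, 5067 and 5288 in *Hoxa7*, 4844 and 5000 in *Dlx6* and 3339 and 3841 in *Hhip*. *Ppp1cb* was highest in the *Pln* subset, at 458 and 458 CPM. *Ppp1r12a* was high in the low-UMI *Adam33* subset, at 1746 and 1311 CPM, and stood at 895 and 1403 CPM in *Nrn1*. *Myl6* and *Myl9* were highest in the low-UMI *Cyb5r3* subset, *Myl6* at 13127 and 12839 CPM and *Myl9* at 6942 and 6830 CPM. The rare *Mylk2* came mainly from the *Hoxa7* subset, with 37 and 17 UMIs, and the *Vcam1* subset, with 13 and 12 UMIs. The *Hand2os1* subset, with nearly as many UMIs in all as the *Hoxa7* subset, gave 4 and 0.

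**Figure D3:**
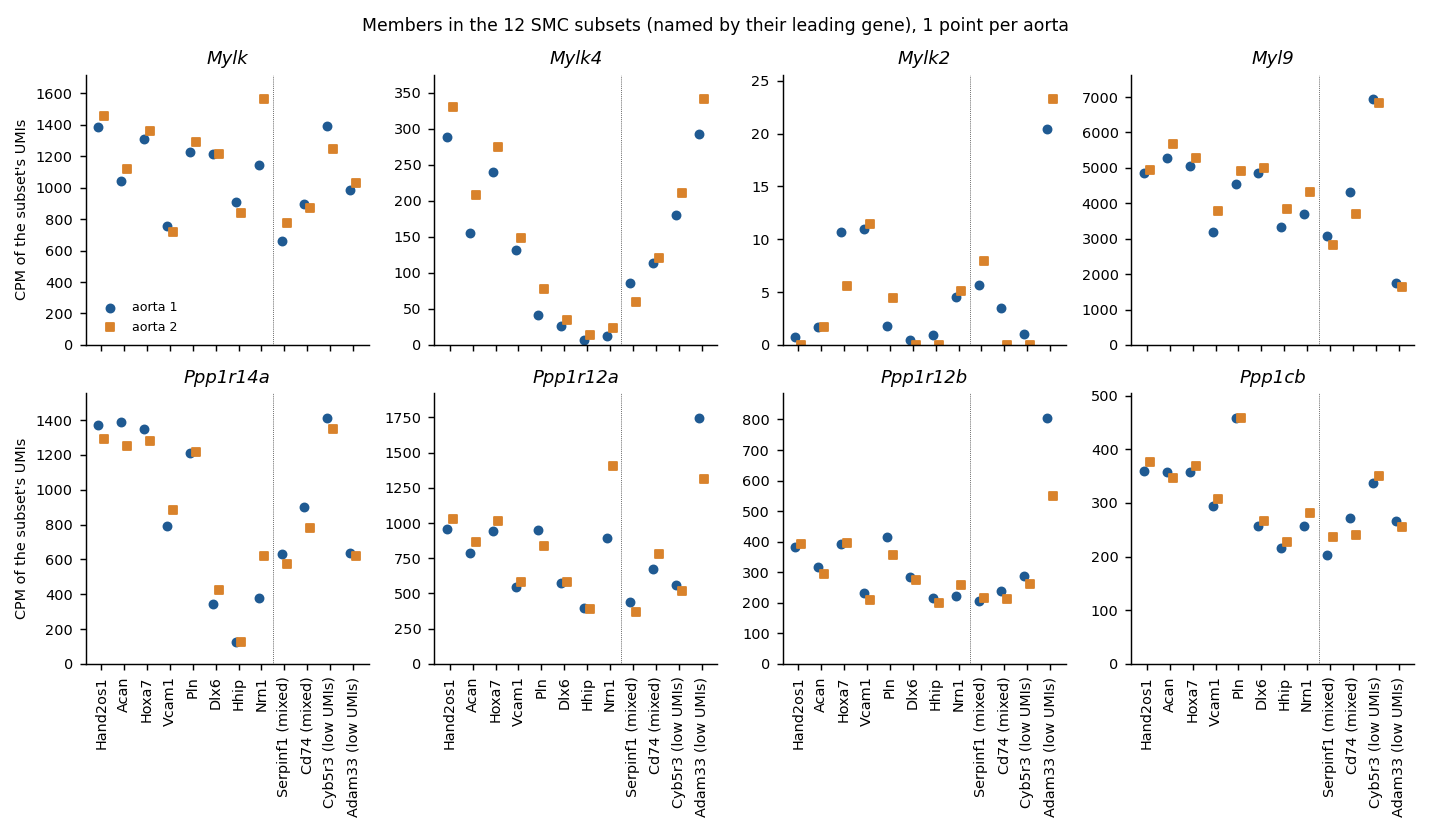
CPM of 8 members in the 12 SMC subsets, 1 point per aorta, with subsets of mixed or low-UMI cells right of the dotted line. The *Nrn1* subset, matched best to the fibroblast list, stands left of it. *Mylk4* and *Ppp1r14a* are low in the *Dlx6*, *Hhip* and *Nrn1* subsets (*Mylk4* 6.79 to 34.4 CPM), where *Mylk* runs from 838 to 1563 CPM.

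Pairs of the 3 largest subsets (*Cyb5r3*, *Hand2os1* and *Hoxa7*) were compared by edgeR. Between *Hand2os1* and *Hoxa7* cells, 0 members were higher and 1 was lower, where 0.805% and 0.449% of all genes were. The 1 member was *Mylk2*, lower in the *Hand2os1* subset by 3.50 on the log2 scale (-3.50, SE 0.62, adjusted p = 0.000316), a ratio of 13.2 (95% exact interval 4.88 to 50.3). *Mylk4* had a log2 fold change of 0.29 (SE 0.13) and *Mylk* of 0.12 (SE 0.11), and neither passed. At an unadjusted p under 0.05 *Mylk4* was the 1 member higher by edgeR, and DESeq2 had 0. The low-UMI *Cyb5r3* subset gave 0 members higher and 0 lower against *Hand2os1* (1.77% and 6.17% of all genes), and 0 higher and *Mylk2* lower against *Hoxa7* (2.03% and 5.19%), on 1 and 54 UMIs (ratio 13.0, 95% exact interval 2.23 to 522). At an unadjusted p under 0.05, *Myl6*, *Myl9*, *Mylk*, *Ppp1cb* and *Ppp1r14a* were higher in the *Cyb5r3* subset in both pairs, all by less than 1 on the log2 scale. *Ppp1r12a* was lower in both at that unadjusted p, at 557 and 515 CPM in *Cyb5r3* against 958 and 1032 CPM in *Hand2os1* and 943 and 1018 CPM in *Hoxa7*. These tests scale the sums (TMM in edgeR). As log2 ratios of CPM + 1 without TMM, *Ppp1cb* was lower in *Cyb5r3*, at -0.094 and -0.11 against *Hand2os1* and -0.084 and -0.080 against *Hoxa7*. *Mylk* was at 0.0039 and -0.22 against *Hand2os1* and 0.090 and -0.12 against *Hoxa7*. *Myl6*, *Myl9* and *Ppp1r14a* remained higher and *Ppp1r12a* lower. The share of all genes at that unadjusted p was not counted for these pairs. DESeq2 had the same genes higher and lower at that unadjusted p, *Mylk2* against *Hoxa7* included, but called 0 members in either direction at the adjusted threshold and gave *Mylk2* no adjusted p.

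The *Dlx6* subset was compared with the *Hand2os1* and *Hoxa7* subsets after the levels had been seen, so these values are descriptive. Against *Hand2os1*, 0 members were higher and 2 lower (4.92% and 3.72% of all genes), *Mylk4* (-3.50, SE 0.17) and *Ppp1r14a* (-1.97, SE 0.13). Against *Hoxa7*, 0 were higher and 3 lower (5.03% and 3.50%), with *Mylk4* at -3.21 (SE 0.17), *Ppp1r14a* at -1.92 (SE 0.13) and *Mylk2*, on 1 and 54 UMIs, at a ratio of 35.2 (95% exact interval 6.06 to 1417). *Mylk* had log2 fold changes of -0.40 (SE 0.11) and -0.28 (SE 0.11) in these pairs and *Myl9* of -0.17 (SE 0.10) and -0.22 (SE 0.10), all inside the fold threshold. As log2 ratios of CPM + 1 without TMM, *Myl9* was at 8.0e-05 and 0.021 against *Hand2os1* and -0.065 and -0.081 against *Hoxa7*. *Mylk* was at -0.19 and -0.26 against *Hand2os1* and -0.11 and -0.16 against *Hoxa7*. At an unadjusted p under 0.05, 0 members were higher in either pair by edgeR or DESeq2, while by both tools 7 were lower against *Hand2os1* (all tested but *Myl9* and *Mylk2*) and all 9 tested were lower against *Hoxa7*. The share of all genes at that unadjusted p was not counted, so these counts have no background to be read against. *Ppp1r12a* was intermediate, at -0.96 (SE 0.13) and -0.91 (SE 0.13). Of the 36 pathway genes tested, *Ppp1r14c* was higher in the first pair and 6 were lower in each. *Rock1*, *Prkg1*, *Prkcd*, *Dapk1* and *Dapk2* were lower in both pairs, *Rock1* at -1.24 (SE 0.11) and -1.11 (SE 0.11).

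Other genes also differed among the subsets. The 9 SMC markers summed to 32932 and 33809 CPM in the *Dlx6* subset, 18362 and 19330 in *Hhip* and 24155 and 28186 in *Nrn1*. They summed to 54663 and 52896 CPM in *Hand2os1* and 56414 and 54884 in *Hoxa7*. In *Adam33*, where *Mylk4* was highest, they summed to 26684 and 22415 CPM. In *Pln*, where *Mylk4* was also low, they summed to 51241 and 50656 CPM, and in *Serpinf1* to 28207 and 25725. The 7 small-vessel mural markers summed to 3080 and 2437 CPM in *Dlx6*, 3903 and 3024 in *Hhip* and 2703 and 3697 in *Nrn1*, against 199 and 375 in *Hand2os1* and 883 and 826 in *Hoxa7*. Most of that sum was *Rgs5* (2782 and 2146 CPM in *Dlx6*). Without *Rgs5* the sums were 299 and 290 CPM in *Dlx6*, 753 and 674 in *Hhip* and 574 and 884 in *Nrn1*. They were 101 and 142 CPM in *Hand2os1*, 164 and 162 in *Hoxa7* and 233 and 364 in *Serpinf1*. Of the 7, 3 and 4 were detected in *Dlx6*, 5 and 5 in *Hhip* and 3 and 3 in *Nrn1*. In *Hand2os1* 4 and 4 were detected, and in *Hoxa7* 3 and 3. *Higd1b* and *Vtn* were at 0 in *Dlx6*, *Hhip*, *Nrn1*, *Hand2os1* and *Hoxa7* in both aortas. Fibroblast markers summed to 2308 and 2899 CPM in *Nrn1*, 536 and 565 CPM in *Hand2os1* and 586 and 545 CPM in *Hoxa7*. Heat shock and early response genes summed to 2689 and 1877 CPM in *Hand2os1*, 1110 and 697 CPM in *Hoxa7* and 614 and 557 CPM in *Dlx6*. Their part in the differences in *Mylk4* and *Ppp1r14a* was not tested.

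As a share of kinase UMIs, *Mylk4* was 17.2% and 18.5% in the *Hand2os1* subset (95% exact intervals 16.4 to 18.0% and 17.0 to 20.1%) and 15.4% and 16.7% in *Hoxa7*. It was 2.15% and 2.75% in *Dlx6* (1.63 to 2.79% and 2.17 to 3.45%), 1.03% and 1.44% in *Nrn1* and 0.742% and 1.63% in *Hhip*. *Mylk* thus made up nearly all kinase UMIs in those 3 subsets. The *Pln* subset was close to them, with *Mylk* at 96.6% and 94.0% and *Mylk4* at 3.30% and 5.64%. The share of *Ppp1r12b* among the targeting subunits was steadier, from 21.4% to 36.9% over 11 subsets, and lower in *Nrn1* at 19.9% and 15.6%.

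**Figure D4:**
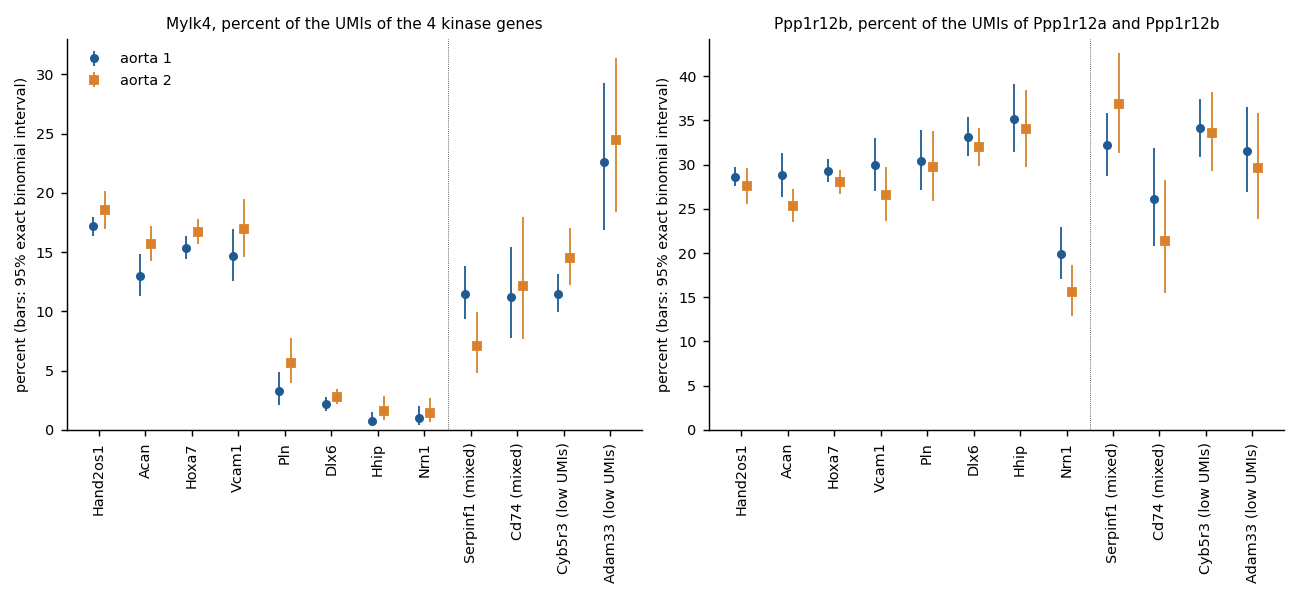
Left: percent of the UMIs of the 4 kinases that came from *Mylk4* in each SMC subset. Right: percent of the UMIs of *Ppp1r12a* and *Ppp1r12b* that came from *Ppp1r12b*. Points are aortas and bars are 95% exact binomial intervals. *Mylk4* is 17.2% and 18.5% in the *Hand2os1* subset and 2.15% and 2.75% in the *Dlx6* subset.

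The genes most like *Mylk4* over the 24 sums of aorta and SMC subset were *Wnt16* (Pearson r = 0.94), *Postn* (0.93), *Bcam* (0.88), *Ptprz1* (0.85) and *Aebp1* (0.85), of 5902 genes compared. Those most like *Mylk* over the 14 sums of aorta and cell type were *Dstn* (r = 0.96), *Tafa1*, *Fbxo30*, *Sgca* and *Abra* (0.95 each). The correlations are descriptive, since sums of an aorta share its library and sums of a subset share its cells and depth.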

How the data were processed

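Thoracic aortas of 2 mice were measured by droplet single-cell RNA sequencing (10x Genomics 3′ chemistry). The authors deposited raw counts, whole-number UMIs per gene and cell, made with Cell Ranger 4.0.0 per the file headers on mm10 with reporter sequences added. The submitters' processing notes also name Seurat 4.0.

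Cells with more than 200 genes, 1000 to 25000 UMIs and under 10% mitochondrial UMIs were kept (6744 and 4698), and doublets found by scrublet were removed (205 and 84, or 3.04% and 1.79%). Cells of both aortas were clustered together (scanpy 1.11.5, 2000 variable genes, 30 components, 15 neighbours, Leiden resolution 1) with the 10 members, the pathway list, the reporters and mitochondrial genes left out. A cluster was named from at least 3 markers detected, and 13 cells stayed unnamed. After the cluster table was seen, the small-vessel mural name was restricted to clusters with fewer than 3 SMC markers, so that an aortic cluster led by *Lrrtm3*, *Rgs5* and *Mia* counts as SMC, and a low-UMI cluster led by *Cyb5r3* was kept as SMC. SMCs were clustered again at resolution 1.

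UMIs were summed per aorta and type or subset (at least 10 cells in each aorta) and tested with edgeR 4.0.16 (TMM, filterByExpr, quasi-likelihood) over all genes, with Benjamini-Hochberg adjustment. DESeq2 1.42.0 was an alternative, under R 4.3.3. CPM are UMIs per 1000000 of the group. Detection per cell was compared after thinning to 1000 UMIs. The code was tested on simulated data. Replicate numbers pair the sums of types, since same-numbered sums came from the same animal. Their deviations correlated in each of 15 pairs of types (r = 0.11 to 0.39 over 2481 genes), and fits with the aorta as replicate block are therefore given as an alternative. The 2 aortas were 2 animals of 1 group, so no comparison between groups was made and p-values rest on 2 sums per type. The members, lists and comparisons were chosen with earlier results of these data known. Named genes were all members, per role of the pathway list the 3 with the highest mean CPM in SMCs, the 5 genes most like *Mylk4* and *Mylk*, and, after their values were seen, the other pathway genes called. Results for 1 role of the list are not reported here by gene. Promoter windows were read from a RefSeq table and gene positions from GENCODE on GRCm38.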

Additional observations from a re-analysis of the deposited data

How the results depend on the processing

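Of 837 values of single genes under the alternatives, 812 changed neither sign nor call, 5 fell inside the threshold, 2 passed it and 18 changed sign. The cause was not tested for any of them. *Mylk4* and *Ppp1r14a* were lower in the *Dlx6* subset by DESeq2, without the gene filter, with the replicate block, with 5000 to 25000 UMIs, with only the 4 largest subsets and with either aorta left out (*Mylk4* at -3.62 to -3.41 against *Hand2os1*). The other alternatives were not run for these pairs.

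With only SMCs and fibroblasts fitted, 0 members were lower, since *Mylk3* had too few UMIs. Between endothelial cells and fibroblasts, 1 member was higher with doublets kept (*Mylk4*, 1.56). There 1 was lower with 5000 to 25000 UMIs, doublets kept, resolution 2 or only these types, and 4 were lower with members allowed in the clustering. With members allowed, *Myl6* (-0.035), *Mylk4* (-1.46) and *Ppp1r14a* (-0.91) changed sign there, as did *Myl9* (0.15) and *Mylk* (0.18) with doublets kept, and *Ppp1r14a* by DESeq2 (-0.041) and without the gene filter (-0.0050). *Mylk3* against endothelial cells was -0.58 with the small-vessel mural class apart, and *Ppp1r12b* between *Hand2os1* and *Hoxa7* cells was -0.0020 with 5000 to 25000 UMIs. *Cdc42bpa* against fibroblasts was 0.0050 without the gene filter, 0.10 with 5000 to 25000 UMIs, 0.00078 with doublets kept, 0.051 with members allowed, 0.011 with the mural class apart and 0.051 with only these types.

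DESeq2 gave *Mylk2* -0.048 against mesothelial cells, *Mprip* -0.039 and *Rhoa* -0.16 against fibroblasts, and did not call *Mylk2* against endothelial cells (adjusted p = 0.161). It placed the median of all genes against fibroblasts at -0.34 where edgeR placed it at -0.09, so that 27.2% rather than 39.2% of calls were higher, and against mesothelial cells 34.8% rather than 47.7%. Among subsets DESeq2 called 420 genes lower (edgeR 659) between *Cyb5r3* and *Hand2os1* with 33.6% of calls higher (22.3%), 331 genes and 0 members lower (555 and 1, *Mylk2*, to which DESeq2 gave no adjusted p) between *Cyb5r3* and *Hoxa7* with 44.0% higher (28.1%), and 47 genes higher (86) between *Hand2os1* and *Hoxa7*. It gave an adjusted p to 8200 and 7992 of the 10686 genes in the first pairs.

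The share of *Mylk4* in the SMC kinases, 12.7%, was 12.8% with 5000 to 25000 UMIs, 12.8% with doublets kept, 12.8% without the low-UMI cluster and 15.4% with the mural class apart. The SMC share of *Mylk4* UMIs, 98.7%, was 99.1%, 94.2%, 94.0% and 95.8% in that order. *Mylk4* was found in 12.4% of SMCs at the thinned depth, 13.9% with 5000 to 25000 UMIs, 12.8% with doublets kept, 40.3% without thinning and 2.48% at a minimum of 2 UMIs. Each of these thinned values had a random draw of its own, and in the draw behind the 12.4% the shares with at least 2 UMIs were 2.42% and 2.81%. As log2 ratios of CPM + 1 without TMM, the median over all 10 members was -0.10, -0.050, 0.018 and -0.35 in the 4 pairs that follow, where edgeR with TMM gave 0.27, 0.32, 0.05 and -0.67 over the 9 tested, opposite in sign in the first 2. With 1 aorta left out, the ratio without TMM was -0.055 to -0.045 between *Cyb5r3* and *Hand2os1*, -0.10 to -0.042 between *Cyb5r3* and *Hoxa7*, 0.0048 to 0.022 between *Hand2os1* and *Hoxa7*, and -0.38 to -0.36 between *Dlx6* and *Hand2os1*. The fit with the aorta as replicate block changed no count of members (9 higher and 1 lower against fibroblasts) and called 1445 genes higher there. The alternatives with the mural class apart or the low-UMI cluster left out, and the *Dlx6* pairs, were added after seeing the data. With 1 group of 2 animals, differences between animals cannot be separated from differences between libraries, and rare kinases rest on few UMIs.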

Other observations

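*Mylk* also differed among the remaining fibroblast clusters. It was measured at 149 and 142 CPM in the small cluster led by *Mab21l2*, where the SMC markers summed to 1910 and 1261 CPM. The clusters led by *Epyc* and *Pla1a* had 32.7 and 23.0 CPM and 29.2 and 15.5 CPM of *Mylk*.

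*Ppp1cb* was uneven among endothelial clusters. The cluster led by *Igf2* and *Sema3g* had 220 and 159 CPM, on 87 and 24 UMIs, and the cluster led by *Emcn* and *Bmp6* had 61.2 and 58.9 CPM, on 79 and 61 UMIs. The clusters did not overlap, and no test was made, since they were cut from the same cells.

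*Mylk4*, left out of the genes used for clustering, was nevertheless the leading gene of the largest SMC cluster, ahead of *Postn* and *Wnt16*.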
